A study of Mus musculus with 11 samples.

Results

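Wild-type library 1 was set against wild-type library 2 of a study of mouse embryonic stem cells (ESCs), feature by feature. The features compared were those with an annotation and a mean of at least 100 over both wild-type libraries, 16454 of the 30395 annotated features among 48942 in the table. The study set lncRNAs and mRNAs of wild-type ESCs against those of ESCs without Dicer, and the libraries compared here are labelled as its 2 wild-type replicates (Dcr WT), of strain 129S4/SvJae. No label says that they came from separate cultures, and 1 library a side leaves no replicate error, so each difference below is a description without a test. The same table holds 3 lines of ESCs that lack Dicer, the enzyme that cuts precursors into mature microRNAs (Dcr KO lines 1, 3 and 4, 1 library each), whose values are given beside those of the wild type. Strain, feeder-free growth on gelatin, poly(A) selection and a strand-marking (dUTP) paired-end library were shared by all 5 libraries, per the labels.

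Cultures of ESCs are mixtures. A small and changing share of the cells passes through a state that resembles the 2-cell embryo and transcribes the Zscan4 genes and the endogenous retrovirus MERVL, while others show the first genes of the primitive streak, of primitive endoderm or of neural ectoderm. In RNA from a whole culture, a higher level of such a gene can mean more cells of that kind or more RNA in each, which cannot be told apart here.

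Values are normalised read counts, the reads of a feature divided by 1 factor per library, and a difference is given as a fold of these values, with a 95% interval that covers counting error only. Reads were recovered from the values and summed over all features, which leaves out reads outside them. The sums were 101815723 in library 1, 206721717 in library 2 and 247574902 to 278006158 in the Dcr KO libraries. A value of 100 stood for 50 reads in library 1 and 110 in library 2. A feature was counted as higher in a library when log2(value + 1) differed by at least 1, that is 2-fold. By that rule 474 features were higher in library 1 (2.88%) and 444 in library 2 (2.7%), together 918 (5.58%). The counts of every gene list below are to be read beside these shares. The balance depends on the scaling: with total count scaling the counts were 377 and 599, with upper quartile scaling 404 and 540, and with median ratio scaling 424 and 499, so that library 2 had more under all 3. At 4-fold, 107 were higher in library 1 (0.65%) and 57 in library 2 (0.346%). The median log2 difference was 0.045, its median size 0.275, and 81.7% of the features lay within 1.5-fold. The same count between separate Dcr KO lines gave 102 of 15987 features for lines 1 and 3 (0.638%), 389 of 16003 for lines 1 and 4 (2.43%) and 193 of 16024 for lines 3 and 4 (1.2%), with median sizes of 0.142, 0.213 and 0.168. The labelled replicates thus lay farther apart by these counts than any pair of the separate knockout lines, a comparison across pairs with different depths.

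**Figure D1:**
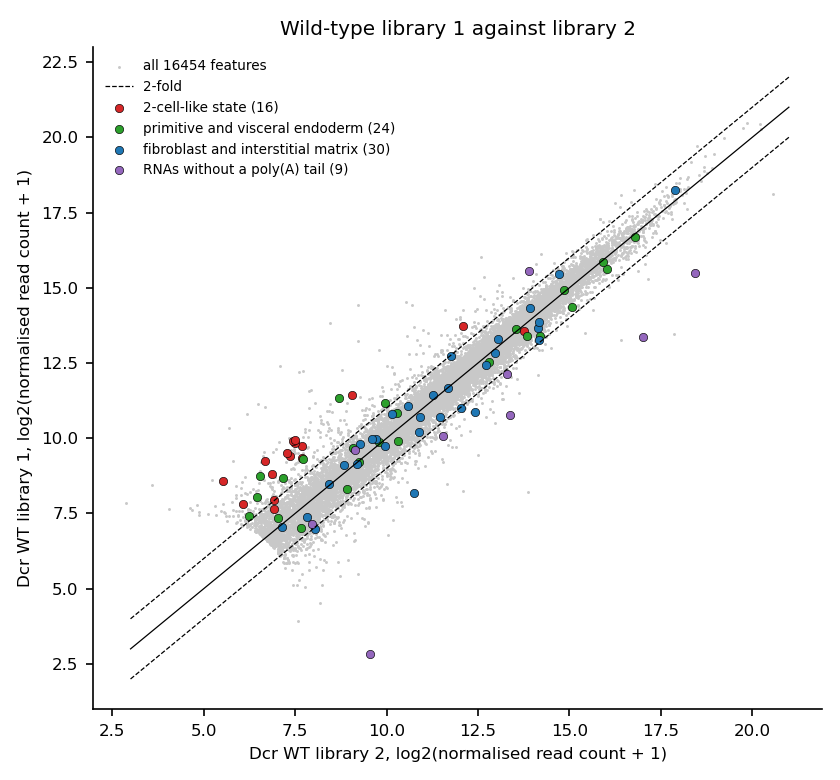
Each grey point is 1 of the 16454 features, with log2(normalised read count + 1) in library 2 on the x axis and in library 1 on the y axis; the solid line marks equal values and the dashed lines 2-fold. Of the coloured lists, 14 of 16 2-cell-like genes lie above the upper dashed line, and 6 of 9 RNAs without a poly(A) tail lie below the lower one.

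The core pluripotency factors Pou5f1 and Sox2 were at nearly equal levels, while several other pluripotency genes were not. Pou5f1 (Oct4) had a normalised read count of 214178 in library 1 and 220556 in library 2, and Sox2 had 89812 and 90714. Nanog was at 147795 and 93760, a fold of 1.58 (1.56 to 1.59). Dicer1 itself was at 20131 in library 1 and 18792 in library 2, with 7743 to 9793 in the knockout lines, so both libraries lay above every knockout line. The median log2 difference of 24 naive pluripotency genes was 0.25. Of them, 2 were higher in library 1 (2.88% of all features) and 1 in library 2 (2.7%). These were Tcl1, a coactivator of Akt kinases, at 22105 against 8916, Klf4, a reprogramming factor, at 78168 against 37711, and Dppa5a, an RNA-binding protein of pluripotent cells, at 69300 against 140019. Esrrb (187376 and 116963) and Klf5 (75835 and 44845) lay on the same side as Nanog without reaching 2-fold. Of 18 formative and primed genes, Tcf15 was higher in library 1 (6808 and 2533) and Otx2 in library 2.

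The 2-cell-like genes had the highest median of the 29 lists and were past 2-fold in most members. The lists were chosen with earlier results of these data known, so ranks among them are description only. Of the 36 names listed, 26 were found and 16 reached the mean of 100; 14 of these were higher in library 1 and 0 in library 2, with a median log2 difference of 2.05. The Dcr KO line pairs had 1 gene of the list past 2-fold each, of 21, 21 and 20. Zscan4c (NM_001013765), whose family of zinc finger proteins acts in telomere upkeep of ESCs, had a value of 949.5 in library 1 and 174 in library 2, and 1954, 2339 and 3417 in Dcr KO lines 1, 3 and 4. Library 1 was thus 5.45-fold above library 2 (4.59 to 6.48), and both wild-type libraries were below every knockout line. Zscan4f was at 992 and 179, Zscan4b at 923 and 181 and Zscan4d at 726 and 154. Their copies are so alike that reads could have been shared among them, and the 4 values are no independent observations. Usp17lb, of a family of deubiquitinating enzymes that is also present in several copies, was at 602 and 102.

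The Zscan4 genes are also alike in the 250 bases upstream of their starts. These bases lie before the transcript and do not show whether reads were shared, and the transcripts were not compared. Shown are Zscan4c, on the forward strand at chr7:11005495-11005744, and Zscan4d, on the reverse strand at chr7:11166149-11166398, both from RefSeq on GRCm38.p6 and read 5′ to 3′ toward the gene. Capitals mark the letters TATAAAA, the core promoter element found shortly before the start of many genes.
Zscan4c: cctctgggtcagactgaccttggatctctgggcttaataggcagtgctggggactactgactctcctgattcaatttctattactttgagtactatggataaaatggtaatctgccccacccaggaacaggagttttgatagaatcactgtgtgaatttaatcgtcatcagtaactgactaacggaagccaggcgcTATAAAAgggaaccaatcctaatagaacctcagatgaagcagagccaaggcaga
Zscan4d: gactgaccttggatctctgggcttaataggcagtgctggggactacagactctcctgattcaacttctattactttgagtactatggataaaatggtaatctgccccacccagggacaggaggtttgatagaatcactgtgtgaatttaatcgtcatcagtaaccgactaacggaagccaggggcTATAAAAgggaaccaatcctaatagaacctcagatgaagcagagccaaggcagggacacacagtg
The motif began 54 bases before the start in Zscan4c and 65 in Zscan4d. Windows of 250 bases before to 50 after each start were aligned for the 4 Zscan4 promoters. Over the 266 to 300 bases that aligned in each pair, they were 95.3 to 99.3% identical to each other. TATAAAA was searched on both strands and chosen after these sequences were seen. Of 12 2-cell-like genes with a promoter in the RefSeq table, 7 had it, namely the 4 Zscan4 genes, Usp17lb, Usp17lc and Usp17ld. Counted per promoter, it was in 4.98% of all 32851 promoters. A match is a description of the letters, not a site.

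Most genes outside these families lay the same way. Without the Zscan4 and Usp17l genes, a division chosen after seeing the data, 6 of 8 were higher in library 1 and the median was 1.64. Sp110, a nuclear body protein, had the widest gap, with 382 in library 1, 44.7 in library 2 and 515, 686 and 996 in Dcr KO lines 1, 3 and 4, a fold of 8.55 (6.21 to 12). Gm4340 was at 2782 and 527. Tmem92 was at 863 and 204, and Pramel19, of the Prame-like family, at 646 and 206. Dppa2, a chromatin factor known to act upstream of this state, was at 13678 in library 1 and 4385 in library 2 and at 7553 to 9046 in the knockout lines, and was the gene of the 14 with all knockout values between those of the wild type. Its partner Dppa4 did not share the gap, with 12181 and 13906. Arg2, an arginase, was at 245 and 121, near 2-fold. All 3 knockout lines lay above library 2 in 15 of the 16 genes and above both wild-type libraries in 13. The 10 genes under a mean of 100 included Zfp352 (149 and 19.2) and Tdpoz2 (46.3 and 3.65), and the value was higher in library 1 for 9 of them.

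The retroviral sequences of the same state were also higher in library 1. MERVL-int, the body of the MERVL element, was at 2193 in library 1, 782 in library 2 and 4405, 5561 and 7054 in Dcr KO lines 1, 3 and 4. This placed library 1 2.8-fold above library 2 (2.56 to 3.07). MT2_Mm, the long terminal repeat that drives it, was at 195 and 98.6, just under the 2-fold rule at a log2 difference of 0.98. Older relatives did not follow: MT2A was at 266 and 382, MT2B at 294 and 419 and MERVL_2A-int at 145 and 182. Chit1, a chitinase gene outside the list, had the same order over the libraries, with 748, 98.6 and 2283 to 4580. So did the noncoding RNA Gm4971, with 179, 33.8 and 463 to 714.

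**Figure D2:**
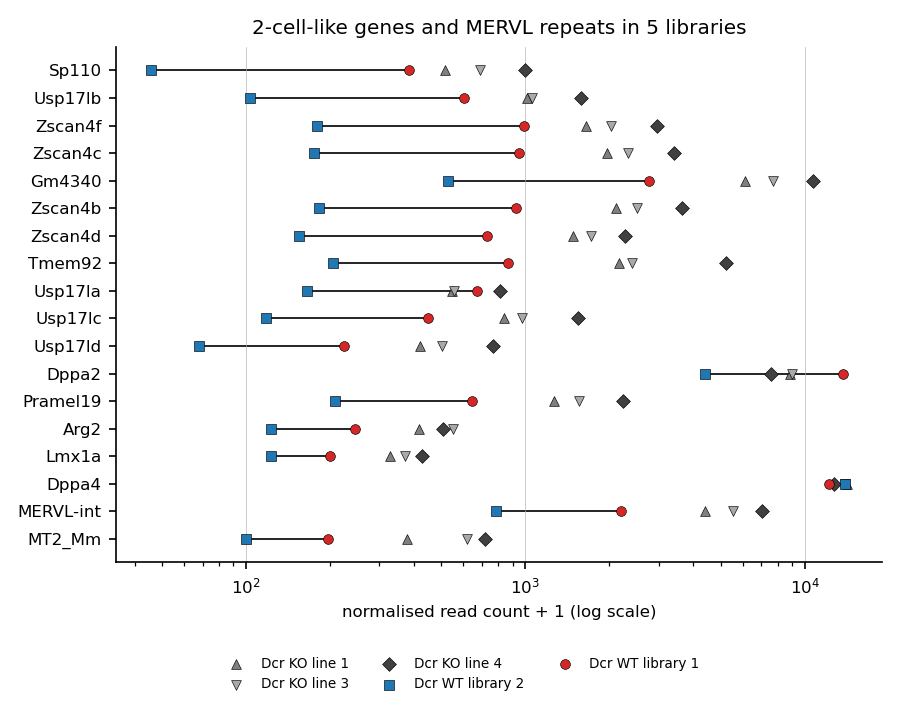
Normalised read count + 1 on a log x axis for the 16 2-cell-like genes and 2 MERVL repeats (rows) in 5 libraries (symbols); the black line joins the wild-type libraries. Library 1 (circles) lies to the right of library 2 (squares) in all rows except that of Dppa4, and the knockout lines lie farther right in most rows.

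Genes of the primitive streak, where mesoderm and endoderm arise, were the list with the next highest median among lists of more than 1 gene, 0.49 over 21 genes. Of these, 5 were higher in library 1 (2.88% of all features) and 1 in library 2 (2.7%). T (Brachyury, NM_009309), the defining transcription factor of the streak, had 386 in library 1 from 192 reads and 99.5 in library 2 from 109 reads, against 12.4, 3.06 and 1.53 in the knockout lines. Library 1 was 3.88-fold higher (3.05 to 4.96) and every knockout line was below both. Cdx1, a homeobox gene of the posterior body, was at 811 and 227, and Cdx2 at 231 and 95.9. Fgf8, a growth factor of the streak, was at 354 and 168, with 5.32 to 9.18 in the knockout lines. Goosecoid (Gsc), a marker of the anterior streak, had 231 and 86.7 and was higher in all knockout lines, at 299 to 420. Hand1, a factor of lateral mesoderm and trophoblast, went the other way with 296 and 811. T, Cdx2, Fgf8 and Gsc had means of 100 to 300, a range where gaps were more common. There 6.5% of all mRNAs were higher in library 1 and 7.44% in library 2. Mixl1 (316 and 329.5), Eomes (2128 and 1514) and Tbx6 (304 and 180) stayed within 2-fold. Of the 7 streak genes below the mean of 100, 5 had the higher value in library 1, among them Hoxb1 (72.4 and 5.48, from 36 and 6 reads), and 2 in library 2, among them Msgn1 (0 and 3.65).

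Among 24 genes of primitive and visceral endoderm, 7 were higher in library 1 and 0 in library 2, but the median was 0.07, near that of all features. Gata6 (NM_010258), the transcription factor that starts primitive endoderm, was at 406 in library 1 and 143 in library 2, and at 29.3, 81.7 and 85.7 in Dcr KO lines 1, 3 and 4. Its fold was 2.84 (2.29 to 3.52), with every knockout line below both. Cubn (cubilin), an endocytic receptor of visceral endoderm, had the widest gap, 2573 and 416 with 181 to 317 in the knockout lines. The adaptor of that receptor, Dab2, was at 2307 and 997. Pdgfra, a receptor of primitive endoderm, was at 628 and 207, and the transcription factor Sox17 at 169 and 73.9. Srgn, a proteoglycan of parietal endoderm, was at 431 and 92.2. Basement membrane genes that this layer makes did not follow, with Lama1 at 31146 and 29792 and Col4a1 at 12688 and 11901, nor did Gata4 (1823 and 1250) reach 2-fold. Of the secreted and absorptive products of visceral endoderm, Afp was at 0 in both and Ttr at 4.02 and 0, whereas Apoa1 was at 72.4 and 71.2, Apob at 316 and 484 and Amn, the partner of cubilin, at 960 and 1274.

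Neural ectoderm had a median of −0.02 over 17 genes, with 3 higher in library 1 and 1 in library 2. Sox1, the earliest factor of neural ectoderm, was at 2245 in library 1 and 352 in library 2, and at 1349 to 2337 in the knockout lines, a fold of 6.37 (5.67 to 7.17). Pax6, a neural and eye factor, was at 1044 and 231, with 3204 to 4119 in the knockout lines. The adhesion molecule Ncam1 was at 7757 and 3225 with 21238 to 28812 there. Otx2, a factor of epiblast and forebrain, was lower in library 1, at 1666 and 3413. Genes of later neural cells were at unlike levels, with Tubb3 at 30432 and 15450, Map2 at 2388 and 2417 and Olig2 at 16154 and 16336. Dcx and Pou3f2 were at 0 in library 1, where 0 reads allow a value of up to 6.04 by counting error, and at 5.48 and 19.2 in library 2. The 15 trophoblast genes had a median of 0.11, with 8 above 0 and 7 below. Of them, 1 was higher in library 1, Cdx2, and 4 in library 2. These were Hand1, the keratin Krt7 (950 and 2381), the homeobox gene Rhox6 (424 and 1033) and the transcription factor Gata3 (229 and 489). The placental genes Tpbpa and Prl3d1 were at or near 0 in both libraries.

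**Figure D3:**
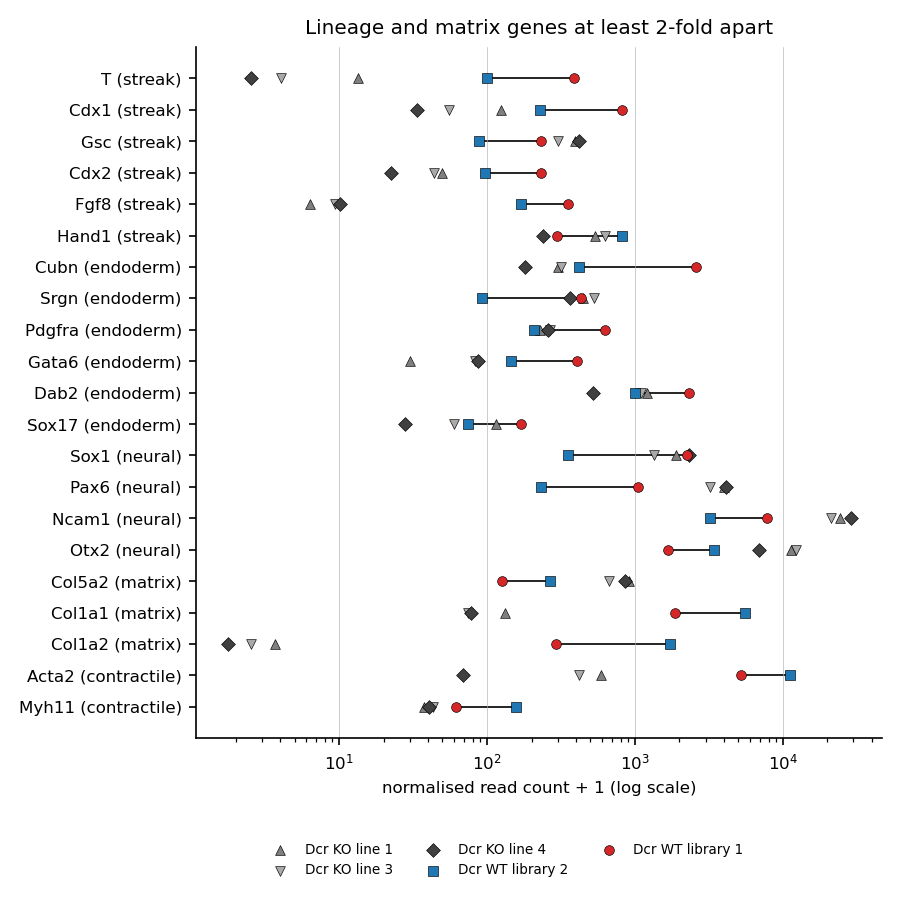
Normalised read count + 1 on a log x axis for the lineage, matrix and contractile genes at least 2-fold apart that are reported here (rows) in 5 libraries (symbols); the black line joins the wild-type libraries. Library 1 is higher in streak, endoderm and neural rows other than Hand1 and Otx2, and library 2 in the matrix and contractile rows; T, Col1a2 and Acta2 are lowest in the knockout lines.

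Fibrillar collagens were on the side of library 2. Of 30 genes of fibroblasts and interstitial matrix, 0 were higher in library 1 and 4 in library 2, with a median of −0.08. Col1a1 (NM_007742) and Col1a2, which code for the chains of type I collagen, were at 1867 and 292 in library 1 and at 5516 and 1723 in library 2. Library 2 was 2.95-fold higher for Col1a1 (2.76 to 3.17) and 5.91-fold for Col1a2 (4.99 to 7.04). Dcr KO lines 1, 3 and 4 had Col1a1 values of 131, 73.3 and 77.3. Their Col1a2 values were 2.66, 1.53 and 0.765, so both genes lay below either wild-type library there. Col5a2, a chain of type V collagen (125 and 265), was instead above both in all knockout lines. Markers of fibroblasts were mixed in level. Low ones were Postn, with 0 in library 1 and 38.3 in library 2, Dcn with 8.05 and 8.22, Lum with 4.02 and 1.83 and Prrx1 with 4.02 and 13.7. Thy1 (3249 and 3306), Mmp2 (7240 and 8011), Pdgfrb (1008 and 769.6) and Twist1 (897 and 617) were higher and within 1.5-fold between the libraries. Vim (44721 and 26855), Timp1 (6798 and 3504) and Fn1 (313407 and 242629) lay toward library 1, so the matrix list did not move as a block. The share of fibroblast-like cells in either library was not tested.

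Other matrix genes outside the list were among the widest gaps on the side of library 2. They were Spon1 (F-spondin), at 96.6 and 564, and Col4a5, a basement membrane collagen, at 60.4 and 312. Of 20 contractile genes, 0 were higher in library 1 (2.88% of all features) and 2 in library 2 (2.7%). Acta2, smooth muscle actin, was at 5192 in library 1, 11165 in library 2 and 591, 415 and 68.1 in the knockout lines, a fold of 2.15 for library 2 (2.06 to 2.24). Myh11, smooth muscle myosin, was at 60.4 and 157. Tagln (18703 and 19886), Myl9 (4882 and 4480) and Des (5126 and 4992), which belong to the same programme, did not differ by 1.5-fold. Of 17 contractile genes with a promoter in the RefSeq table, 6 had the CArG box bound by serum response factor, searched on both strands. Counted per promoter, the box was in 1.47% of all promoters. The genes that held it were Acta1, Actc1, Cnn2, Myl9, Srf and Vcl, none of them 2-fold apart.

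Several signalling and metabolic genes were higher in library 1. Of 24 genes of TGF-beta, BMP and Wnt response, 4 were higher there and 1 in library 2, with a median of 0.33. Tgfbi, a secreted adhesion protein, was at 3305 and 939 and the activin subunit Inhbb at 4201 and 2039. The ligand gene Tgfb2 was at 316 and 689. Lefty2, a Nodal inhibitor, was just under 2-fold at 30572 and 15455, whereas Nodal was at 20866 and 18475. Glycolysis and hypoxia response had a median of 0.41, with 22 of 26 genes above 0 and 3 at least 2-fold higher in library 1. These were Gapdh (20129 and 5636), Eno1 (159823 and 58689) and Gpi1 (147595 and 62112), all enzymes of glycolysis. Pkm was at 595457 and 331108 and Slc2a1, a glucose transporter, at 120622 and 72262. Hypoxia genes such as Egln3 (4414 and 3645) and Car9 (135 and 109) were closer. Gapdh and Eno1 have processed copies elsewhere in the genome, and 5 genes of the list have a pseudogene named after them.

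Zeb1 and Zeb2, repressors of epithelial genes and known targets of the miR-200 family, were higher in library 1, at 3426 and 1609 and at 515 and 220. Both were higher still in the knockout lines, Zeb1 at 11161 to 12276. Zeb2 was at 532 to 827 there, so its lowest value was close to that of library 1. Several epithelial genes lay toward library 2, with Krt7 past 2-fold. Cldn4 (20236 and 39025), Cldn7 (4832 and 9163) and Grhl2 (6430 and 11579) were just short of it. Others did not follow. Epcam (48111 and 47825), Krt19 (4780 and 5051) and Krt17 (2619 and 2730) were nearly equal, and Krt14 (189 and 124) lay toward library 1. Cdh1 (E-cadherin) was at 106747 and 126811. Over the 20 genes of the epithelial and mesenchymal list the median was −0.25. Within the 11 members of the blood and endothelium list, Cdh5 (VE-cadherin, 213 and 38.3) and the receptor Tie1 (620 and 196) were higher in library 1, while Hbb-bh1 and Hba-x were at 0 in both libraries.

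Single imprinted genes were higher in library 2. Peg10, a retrotransposon-derived gene needed for placenta, was at 56313 in library 1 and 136327 in library 2, the growth factor Igf2 at 8218 and 17597 and Zim1 at 264 and 616. They were 3 of 29 imprinted genes (2.7% of all features), with 0 higher in library 1 (2.88%) and a median of −0.06. Grb10 (140671 and 88852) and Meg3 (38980 and 32396) lay on the other side. Among 11 genes of X inactivation and the Y chromosome, 9 were lower in library 1 and the median was −0.63. Kdm5d, a Y-linked demethylase, was past 2-fold at 398 and 1092, with 252, 6.11 and 129 in the knockout lines. Its Y-linked neighbours Uty (5243 and 8746) and Eif2s3y (4221 and 6342) were within 2-fold. The X-linked genes Rlim (44341 and 81557) and Eif2s3x (9948 and 18559) were close to it, and Xist was at 26.2 and 55.7. Of 19 germline genes, Tex15 (1581 and 4403) and Rhox6 were higher in library 2 and Stra8 (921 and 356), which responds to retinoic acid, in library 1.

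Gaps in the stress lists were few, but so were those of all mRNAs, of which 4.17% were past 2-fold. In lists this short, counts of 0 or 1 do not set stress genes apart from that share. Of 22 p53 targets, 17 heat shock genes, 20 immediate early genes and 16 genes of the microRNA machinery, 0 were past 2-fold in either direction. One gene each was past it for the Atf4 response (Ddit4, 9057 and 20702), cholesterol synthesis (Idi1, 1422 and 2909), interferon response (Ifit2, 121 and 380) and metal response (Mt3, 501 and 1164), all higher in library 2. Of 6 metal list genes with a promoter in the RefSeq table, 3 had the metal response element in the 250 bases before the start (TGCACNC or TGCGCNC, on either strand). They were Mt1, Mt2 and Slc30a1. Counted per promoter, the element was in 21.4% of all promoters. Respiratory chain genes had 2 of 25 higher in library 2, Cox7c (2929 and 9170) and Ndufb3 (2937 and 6616), and heart and skeletal muscle genes 1 of 9, Ttn (3323 and 7119). Of the myeloid genes only Itgam was a member (398 and 250), and Tyrobp and Lyz1 were at 0 in both libraries. Myc had 10984 in library 1 and 7478 in library 2, and Mycn 93214 and 79275.

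**Figure D4:**
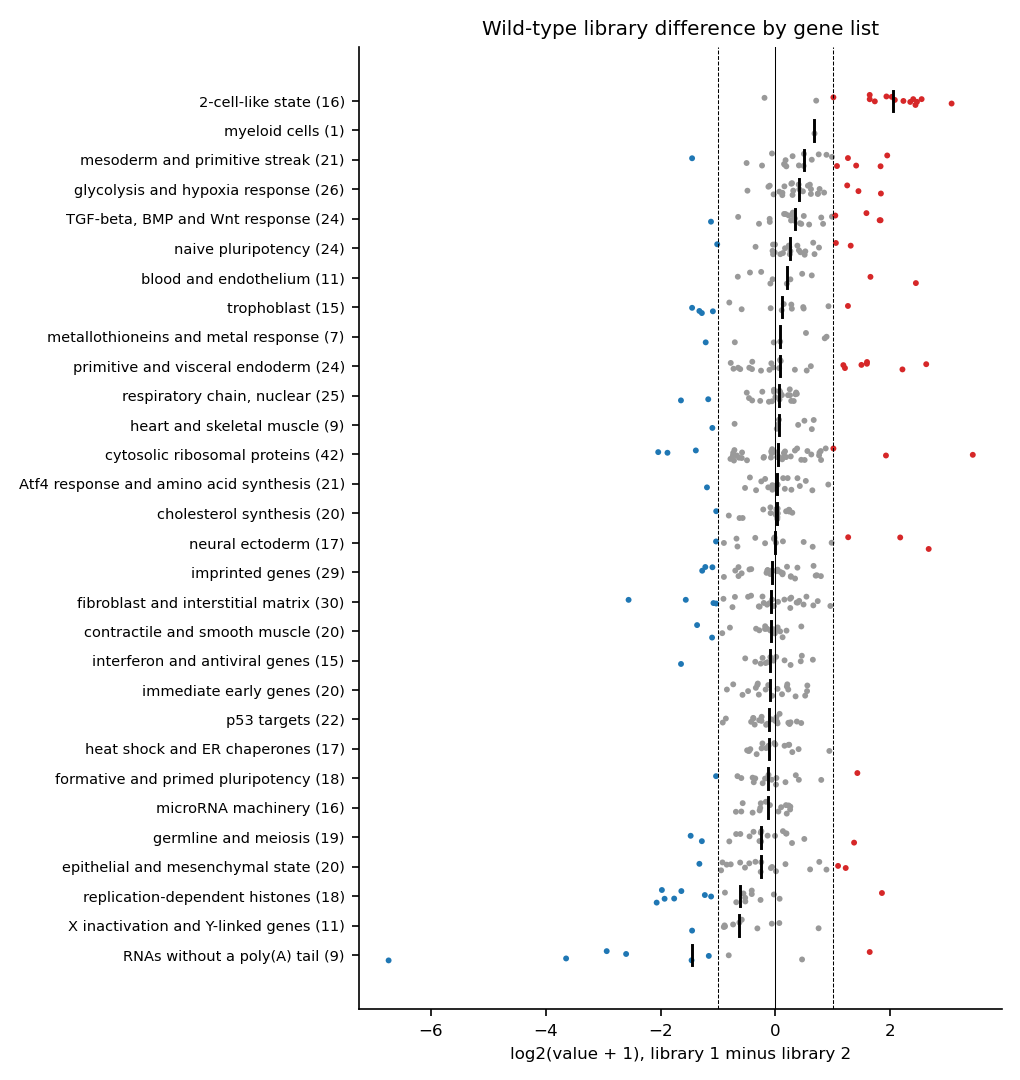
Each point is 1 gene of a list, placed by its log2(value + 1) in library 1 minus library 2 (x axis); black bars are medians, dashed lines 2-fold, and numbers in brackets the genes per list. The 2-cell-like median of 2.05 lies farthest to the right. The list of RNAs without a poly(A) tail, with a median of −1.46, was drawn up after its values were seen.

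Several RNAs without a poly(A) tail were far higher in library 2. Poly(A) selection removes most of them, so what was read is a remainder. A list of 9, drawn up because these values had been seen and so only a description, had 6 higher in library 2, 1 in library 1 and a median of −1.46. Rn7sk and the 7SK repeat family are the same RNA, counted as 2 of the 6. Rn7sk, the scaffold that holds the elongation factor P-TEFb, was at 46067 in library 1, 353334 in library 2 and 152214 to 167013 in the knockout lines. Rmrp, the RNA of RNase MRP, was at 10646, 133327 and 9773 to 11503, so library 2 stood apart from the other 4. Scarna17, a guide RNA of Cajal bodies, had 3 reads (6.04) in library 1 against 749 in library 2 and 12.2 to 30.6 in the knockout lines. The exception was 7SLRNA, the repeat family of the signal recognition particle RNA, at 47650 in library 1, 15278 in library 2 and 2416 to 6384 in the knockout lines. In all, small RNA features took 0.149% of recovered reads in library 1, 0.392% in library 2 and 0.217 to 0.254% in the knockout lines.

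Replication-dependent histone genes, whose mRNAs end in a stem-loop in place of a poly(A) tail, had the same lean. Of 18, 7 were higher in library 2 and 1 in library 1, with a median of −0.62. H4c2 was at 211 and 835, H3c14 at 1104 and 4215 and H2ac18 at 839 and 3523, while H2ac6 was at 841 and 232. Of 6 families of B1 and proto-B1 repeats, which descend from 7SL RNA, 3 were higher in library 2 and 1 in library 1. B1_Mm was at 235 and 1256, with 11.5 to 28.4 in the knockout lines, and PB1 at 189 and 64.8. MuLV-int, of murine leukaemia viruses, was higher in library 1 at 1183 and 411. The most abundant mRNA feature with a wide gap was that of Lars2, the mitochondrial leucyl-tRNA synthetase. It was at 287216 in library 1, 1553619 in library 2 and 426141 to 498234 in the knockout lines. That is above Pou5f1 in every library, and whether all these reads stem from the synthetase mRNA was not tested. The histone genes and repeats are near-identical in part, and their values are uncertain to that extent. The part of these RNAs in the lineage differences was not tested.

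Pseudogenes were 2-fold apart more often than mRNAs, and mRNAs with a named pseudogene more often than those without. Of 1055 pseudogenes, 142 were higher in library 1 and 65 in library 2, 19.6% in all, while the Dcr KO line pairs had 1.14 to 4.8% past 2-fold. For the 13617 mRNAs it was 285 and 283, 4.17% in all, for features classed as lncRNAs 7.83% and for the 63 small RNAs 15.9%. The classes were not matched for level, and among mRNAs the share was lower at higher levels. Of 246 features annotated from human transcript records, 41 were past 2-fold (16.7%). RefSeq mRNAs with a pseudogene named after them were past it in 9.71% of 309 cases and those without in 3.72% of 12892. Of the 42 listed ribosomal protein genes, 32 have a named pseudogene; 3 were higher in library 1 (Rpl18, Rps28 and Rps18) and 3 in library 2 (Rps23, Rpl13 and Rps2), around a median of 0.04. Rpl18 had 65862 in library 1, 6085 in library 2 and 5312 to 7067 in the knockout lines, a fold of 10.8 (10.5 to 11.1). Rps28 was at 730.3 and 192, and on the other side Rps23 at 1203 and 4959 and Rps2 at 19719 and 51563. Of ribosomal protein genes outside the list, Rpl39 was at 19409 and 3127, Rps26 at 9890 and 87564 and Rps10 at 4394 and 18133. Whether these gaps reflect the transcripts or how reads were assigned to copies was not tested.

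**Figure D5:**
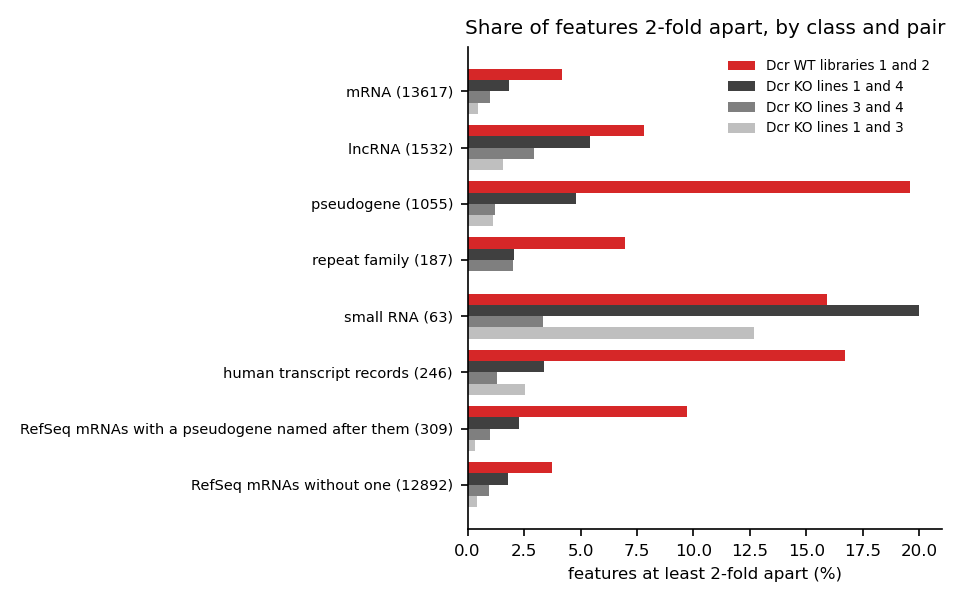
Percent of features at least 2-fold apart (x axis, from 0) by class, with the number of wild-type features in brackets, for the wild-type pair and the 3 pairs of Dcr KO lines; the last 3 classes are subsets drawn from the others. Pseudogenes reach 19.6% in the wild-type pair and at most 4.8% in the knockout pairs, whereas small RNAs reach 20.0% in Dcr KO lines 1 and 4.

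Features classed as long noncoding RNAs (lncRNAs) lay more often on the side of library 2, with 79 of 1532 higher there and 41 in library 1. The class also takes in noncoding records named as pseudogenes, whose number was not counted. Among its widest gaps toward library 2 were Rps15a-ps4 (304 and 4326) and Gpx2-ps1 (155 and 1158). The widest gap of the class was that of uc007zbz.1, at 11211 and 238296, with 54359 to 62898 in the knockout lines. The share of mRNAs past 2-fold was lower at higher levels: at means of 100 to 300 it was 6.5% toward library 1 and 7.44% toward library 2, and from 10000 upward 0.962% and 0.435%. Counting error was widest at the bottom. Kcna1, a potassium channel just above the mean of 100, had 50.3 and 149.7 with an interval of 1.95 to 4.73 for its 2.98-fold. Just below the mean of 100 lay Islr (78.5 and 121) and Ly6a (139 and 61.2), which are not members. Other wide gaps among mRNAs with a gene symbol were those of Phf11a (201 and 15.5) toward library 1 and of Atp5md, a subunit of ATP synthase (356 and 3208), Mpc1, a carrier of pyruvate into mitochondria (34.2 and 301), and Rasef (58.3 and 404) toward library 2.

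A few microRNA genes were also 2-fold apart. Poly(A) libraries read the long host transcripts of microRNAs and not the mature forms, which Dicer makes. Mir9-3 (390 and 157) and Mir124a-1 (2786 and 1253), both of neural microRNA families, were higher in library 1. Mir675, which lies within the imprinted H19 transcript (3663 and 8868), Mir18b, of an X-linked cluster (420 and 1111), and Mir142, of blood cells (103 and 224), were higher in library 2. The 5p mature forms of 4 of them, from RefSeq on GRCm38.p6 with the seed (bases 2 to 8) in capitals, show that no seed is shared.
miR-9-5p: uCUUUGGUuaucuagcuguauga
miR-675-5p: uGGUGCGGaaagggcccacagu
miR-18b-5p: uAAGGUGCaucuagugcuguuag
miR-142a-5p: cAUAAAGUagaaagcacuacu
They lie at chr7:79505279-79505301 (forward), chr7:142577112-142577133 (reverse), chrX:52742381-52742403 (reverse) and chr11:87756867-87756887 (forward), in this order.

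The position of the knockout lines beside the wild-type libraries varied from feature to feature. Where they lay between the wild-type libraries, which library was nearer was not counted. Of the 474 features higher in library 1, all 3 lines lay between the wild-type libraries in 133, above both in 102, below both in 103, and mixed in 136. Of the 444 higher in library 2, the counts were 119, 70, 134 and 121. Of the 14 2-cell-like genes past 2-fold, 12 had all knockout lines above both wild-type libraries. Among the 6 streak genes past it, 4 had all knockout lines below both, and so did 2 of the 4 matrix genes.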

How the data were processed

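RNA was measured in 2 Dcr WT and 3 Dcr KO libraries. Per the submitters' processing notes, TopHat, Bowtie, DESeq and the build mm9 were used, without their roles or versions. How reads were counted, over which gene models and whether by strand is not stated there, which leaves antisense, overlapping and multicopy features uncertain. The authors deposited a normalised signal per feature, which the values show to be read counts divided by 1 factor per library: 100.0% were whole multiples of 1 read within 0.01 read (2.012 per read in Dcr WT library 1, 0.913 in library 2). The number of columns without a sample was 0; library 1 carries another column suffix than the other 4 libraries, for which the labels give no reason.

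From these, log2(value + 1) differences, counts past 2-fold and medians were computed with Python 3.11.15, numpy 2.4.6 and pandas 2.3.3; ratios carry 95% Clopper-Pearson counting intervals from recovered reads (scipy 1.17.1). The script was tested on simulated data. RefSeq symbols of GRCm38.p6 matched 20183 of 20559 identifiers; a listed gene was its feature with the highest mean. The members and 29 lists were chosen with earlier results of these data known; 1 list was added later. Named were fixed marker and reference genes, the widest gaps (12 mRNAs and 6 lncRNAs a side, and 6 abundant mRNAs), up to 6 genes a side of lists with at least 3 past 2-fold, and features beside the mean of 100; features without a gene name are mostly given as counts. Other genes of the lists, small RNAs and repeats were named after their values were seen. Alternatives varied the pseudocount, mean, scaling, interval and feature choice. A few genes counted in the lists are not reported here by name.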

Additional observations from a re-analysis of the deposited data

How the results depend on the processing

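No paired analysis was possible because there is 1 library a side, and for the same reason none could be left out. The 474 features higher in library 1 became 1221 at a mean of at least 10 and 230 at 1000; the 444 higher in library 2 became 1322 and 158, and 233 where the whole counting interval had to lie past 2-fold, which left 344 in library 1. The median of 0.045 became 0.068 at a mean of 1000, −0.074 with total count scaling (a shift of −0.12 in every log2 difference), −0.039 with upper quartile scaling and −0.009 with median ratio scaling, so list medians this close to 0 have no firm direction. At a mean of 1000 the streak list had 0 genes higher in library 1 and 0 in library 2, the endoderm list 2 and the 2-cell-like list 2 in library 1; the fibroblast list had 7 in library 2 at a mean of 10. With the interval rule the streak list had 3 in library 1 and the fibroblast list 2 in library 2. Without the Zscan4 and Usp17l families, a choice made after seeing the data, the 2-cell-like count was 6. The Dcr KO pairs 1 and 3, 1 and 4, and 3 and 4 had 916, 1523 and 1064 past 2-fold at a mean of 10 and 23, 93 and 45 at 1000. The higher floors test fewer features. Leaving out genes with a named pseudogene, also chosen after seeing the data, left the 4 lists' counts as they were. That could hardly be otherwise: the streak and endoderm lists held 1 such gene each, and the fibroblast and 2-cell-like lists 0. It therefore does not show whether reads were shared among copies. Of 747 recomputed differences of 114 named features, 643 stayed within their interval and 0 changed direction. Depth limits what can be read from features near a mean of 100.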
